A study of Mus musculus with 15 samples.

Results

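Oxidative phosphorylation is the step at which mitochondria pass electrons along a chain of protein complexes to oxygen and use the proton gradient so formed to make ATP. Its complexes I, III, IV and V are built from subunits of 2 genomes, since most genes lie in the nucleus and a few core subunits is still encoded by mitochondrial DNA (mtDNA). The mtDNA is transcribed as long transcripts from both strands, whereas each nuclear gene has a promoter of its own, so the messenger levels of the 2 sets can move apart. The genes described here were chosen by symbol: every entry whose name begins with Nduf and a subunit letter, Cox4 to Cox8 with a subunit letter and number, Uqcr or Atp5, together with the protein-coding genes of mtDNA, pseudogenes left out. The names matched 85 entries of the deposited table, of which 83 passed the filter on low counts, against 15494 genes kept in all. Of the 83, 70 were nuclear and 13 mitochondrial.

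The tumors were WEHI-164 fibrosarcomas, an established BALB/c line, grown under the skin of wild-type female BALB/c mice. All groups shared this single line, strain and sex. Tumors of day 0 were untreated, and those of days 1, 3, 5 and 7 came from mice given poly(I:C), a synthetic double-stranded RNA that innate sensors read as viral, at 1 µg in 25 µL daily into the tumor, with 6 doses planned. A supplement to the study gives a higher dose for this course, so the dose is uncertain. No untreated or vehicle-treated tumor of days 1, 3, 5 or 7 was among these samples. Poly(I:C), time since day 0 and repeated injection therefore cannot be told apart in any comparison of days. Polyadenylated RNA was sequenced from 3 tumors on each of the 5 days, 15 in all, and the depth ran from 23713090 to 31913106 counts per tumor. The labels do not say whether tumors of one day were handled together, so the p-values measure the spread between these tumors.

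Replicate 1 of day 3 stood apart from the other tumors on the first principal component, which held 57.4% of the variance. The larger member results that rest on it are given with and without it. Day 3 values of genes outside the set include it, unless a value without it is stated. Fibroblast and sarcoma markers were high in every tumor, with a summed level of 9709 to 32663 CPM, a gene's counts relative to its tumor's normalised total. The top sum was in replicate 1 of day 3, where Col1a1, Col1a2, Col3a1, Pdgfrb and Sparc were highest of the 15 tumors. Vim and S100a4 were lowest there, at 2762 and 300 CPM, and Fn1 was neither. In that replicate the 8 macrophage and monocyte markers summed to 10416 CPM and the 8 T cell markers to 337 CPM, the highest of the 15 tumors for both. The 4 endothelial markers ranged from 68.9 to 465 CPM, the 5 neutrophil markers from 11.4 to 193 CPM, the 5 erythroid markers from 9.49 to 221 CPM and the 4 keratinocyte markers from 1.97 to 25.2 CPM. In such bulk tissue, fewer cells of a type and less RNA per cell cannot be told apart.

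For some mitochondrial genes the deposited value depends on a nuclear neighbour in sequence. Chromosome 1 holds copies of mtDNA that the annotation lists as separate pseudogenes, and 7 mitochondrial members had such a copy at 99% identity or more over the aligned part. The sequences below show how little separates the pairs. They are given 5′ to 3′ in GRCm38 (GENCODE transcripts), in lower case with the differing base in capitals. The first pair is the start of mt-Nd3, a membrane subunit of complex I (chrM:9459-9506, plus strand), and of its copy Gm28438 (chr1:24613072-24613119, minus strand). They differed at T3C, counted from the first base of mt-Nd3, and at no other base of the 345 aligned.
mt-Nd3: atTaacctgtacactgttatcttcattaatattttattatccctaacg
Gm28438: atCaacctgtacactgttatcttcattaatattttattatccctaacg
The second pair comes from mt-Co1, the catalytic subunit of complex IV (chrM:6390-6438, plus strand), and Gm29216 (chr1:24616140-24616188, minus strand), which differed at A1066T, counted from the first base of mt-Co1, over 483 aligned bases.
mt-Co1: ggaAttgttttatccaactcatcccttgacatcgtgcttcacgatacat
Gm29216: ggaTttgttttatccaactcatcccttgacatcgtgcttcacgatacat
The third stretch, from mt-Co2, which carries the copper site that accepts electrons from cytochrome c (chrM:7293-7413, plus strand), was the same in Gm28661 (chr1:24615165-24615285, minus strand). These 2 transcripts were identical over 681 of the 684 bases of mt-Co2.
mt-Co2: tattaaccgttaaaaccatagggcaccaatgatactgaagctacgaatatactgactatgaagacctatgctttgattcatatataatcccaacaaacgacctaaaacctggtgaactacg

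The counts split between such pairs unevenly from tumor to tumor. On day 0, mt-Co2 stood at 1262, 2081 and 1166 CPM and its copy at 3099, 2082 and 3269 CPM. On day 3, mt-Co2 stood at 786, 598 and 1589 CPM and the copy at 2631, 2965 and 1872 CPM. Where one was high the other was low, and the copy held between 19.5% and 83.2% of the pair's counts. Over the 15 tumors mt-Co2 alone varied 4.93-fold and the sum of the pair 1.49-fold, and the coefficient of variation within days was 39.2% alone and 9.60% for the sum. For mt-Atp6, a proton-channel subunit of the ATP synthase, and Gm10925 it was 23.2% alone and 11.1% summed, and for mt-Nd3 and Gm28438 36.1% and 12.9%. Most of the mt-Nd3 signal was assigned to the copy, at 82.3% to 95.5% of the pair. The copy of mt-Co1 held a steadier 12.3% to 16.1% of its pair, that of mt-Co3 at most 2.87%, and those of mt-Nd4 and mt-Nd4l had 0 counts in every tumor. How the reads themselves divided was not tested, and the deposited levels of mt-Co2, mt-Atp6 and mt-Nd3 are given below with the sum of their pair.

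**Figure D1:**
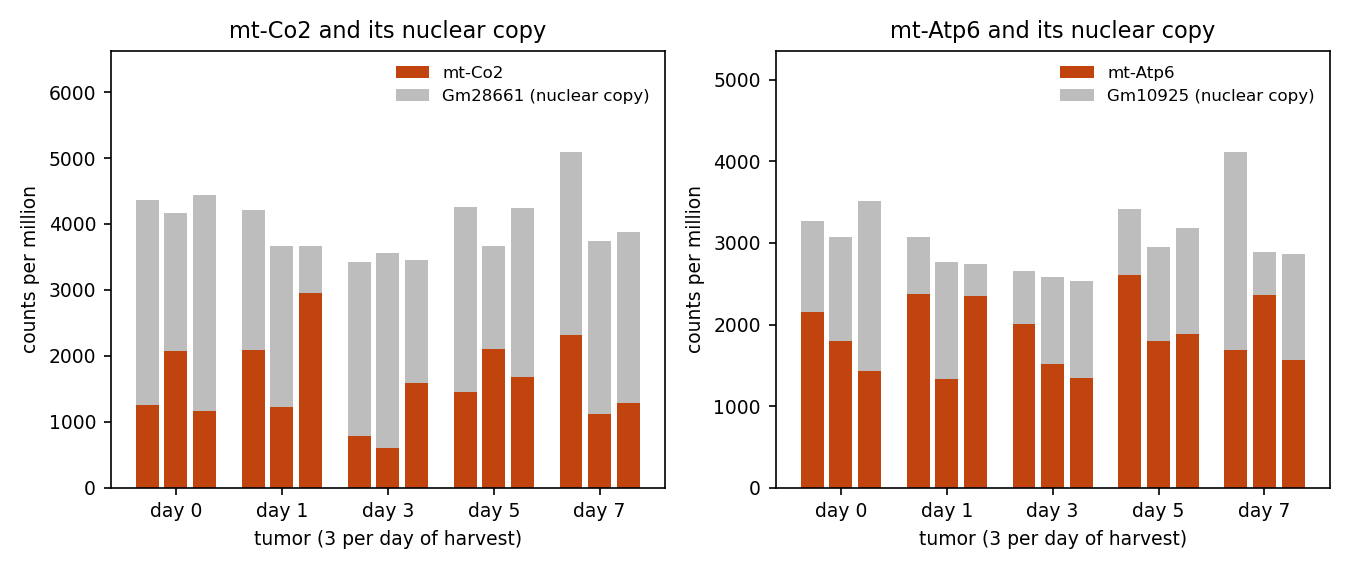
CPM of mt-Co2 and mt-Atp6 (orange) and of their nuclear copies (grey, stacked on top) in each of the 15 tumors, 3 bars per day of harvest in the order of replicates 1, 2 and 3. The orange parts vary more between tumors of one day than the full height of the bars does.

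Per length, 8 of the 13 mitochondrial messengers were more abundant than any nuclear one. The median over 15 tumors was 5449 CPM per kilobase of transcript for mt-Co1, 4186 for mt-Co3 and 2224 for mt-Cytb, and it was 488 for mt-Nd5. Among the nuclear genes it was 544 CPM per kilobase for Atp5b, the catalytic beta subunit of the ATP synthase, and 319.5 for Cox4i1, a structural subunit of complex IV. The lowest mitochondrial values were those of mt-Atp8 at 83.9 and mt-Nd3 at 27.1 CPM per kilobase, the latter without its copy. The 13 mitochondrial genes together took 2.02% to 2.98% of all counts in a tumor and the 70 nuclear genes 0.605% to 0.745%.

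By day, the mitochondrial share was 2.51, 2.38 and 2.56% in the tumors of day 0, 2.54, 2.02 and 2.32% on day 1 and 2.20, 2.03 and 2.07% on day 3. All 3 tumors of day 3 lay below those of day 0, and on day 1 only replicate 1 did not. The share was 2.75, 2.32 and 2.42% on day 5 and 2.98, 2.29 and 2.18% on day 7, both of which overlapped day 0, with replicate 1 of day 7 the highest of all. The nuclear share was 0.607, 0.662 and 0.632% on day 0 and 0.745, 0.678 and 0.689% on day 7, so that every tumor of day 7 lay above every untreated one. The ratio of the summed counts, mitochondrial to nuclear, had a mean of 3.93 ± 0.287 (SD, n = 3) on day 0, 3.35 ± 0.241 on day 3 and 3.52 ± 0.428 on day 7.

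**Figure D2:**
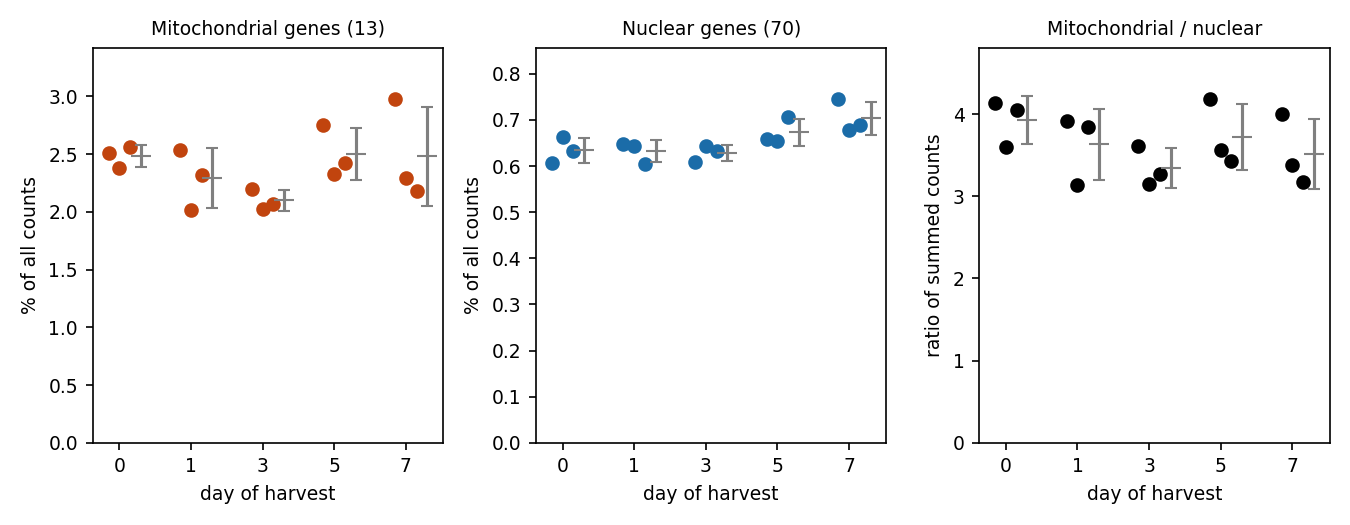
Percentage of all counts held by the 13 mitochondrial genes (left) and the 70 nuclear genes (middle), and the ratio of the 2 sums (right), in each tumor by day of harvest; grey marks give the mean and SD of 3 tumors. The mean mitochondrial share is lowest on day 3, though the lowest single tumor is replicate 2 of day 1. The nuclear share of all 3 tumors of day 7 lies above that of the untreated tumors.

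None of the 83 genes passed an adjusted p of 0.05 in edgeR's quasi-likelihood test on any treated day, between days 7 and 3, or in the joint test of the 4 treated days, and the same test called 0% of all genes in each of these comparisons. At an unadjusted p under 0.05, 12 of the 83 passed the joint test, against 16.2% of all genes. DESeq2 called 4 members in the joint test, Atp5g2, Cox6a2, mt-Cytb and Ndufb6, with 7.65% of all genes called. It called 0 members on days 1, 5 and 7 (all genes: 0.258%, 0.0645% and 0.0323%), 2 on day 3, Atp5l and mt-Cytb (12.9%), and 12 between days 7 and 3, 10 higher and 2 lower (20.9%). Without replicate 1 of day 3, DESeq2 called 0 members on days 1, 3 and 7 and between days 7 and 3, 1 on day 5 and 1 in the joint test. In that fit the share of all genes called was 0.465%, 0.562%, 0.123% and 0.103% for days 1, 3, 5 and 7, 0.574% between days 7 and 3 and 1.11% in the joint test. The members below are therefore described by their values.

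On average the mitochondrial genes stood lower on days 1 and 3 than in untreated tumors. On day 1 the median log2 fold change of the 13 was -0.26 against 0.00 for all genes, and on day 3 it was -0.28 against -0.02. On day 3 all 13 were below day 0 on average, and in 6 of them no tumor of day 3 reached the untreated tumors, where 19.0% of all genes were apart in this direction. On day 1, 4 of 13 lay wholly below day 0 (all genes, 6.61%). At an unadjusted p under 0.05, 2 were lower on day 1 (all genes, 0.981%) and 3 on day 3 (11.7%), and 0 were higher on either day. Without replicate 1 of day 7, which enters the shared estimate of the spread, 6 were lower on day 3 (10.8%). The count also fell in other such fits: without replicate 3 of day 0, 1 was lower on day 3, and without replicate 1 of day 0, 2 were. Against day 0 the median was 0.07 on day 5 and -0.02 on day 7, when no gene of the 13 was apart from day 0 in either direction. Without replicate 1 of day 5 the median of day 5 was -0.11, and without replicate 1 of day 7 that of day 7 was -0.19.

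The clearest single gene was mt-Cytb, cytochrome b, the one mtDNA-encoded subunit of complex III (chrM:14145-15288, plus strand). Its levels were 3017, 2845 and 3196 CPM in the untreated tumors, 2609, 2243 and 1891 CPM on day 1 and 2207, 2112 and 2098 CPM on day 3. All 6 tumors of days 1 and 3 lay below all 3 untreated tumors. On day 5 they were 2945, 2514 and 2889 CPM and those of day 7 were 3364, 2465 and 2544 CPM, overlapping day 0. The log2 fold change on day 3 was -0.50 (SE 0.15, edgeR adjusted p = 0.115, DESeq2 adjusted p = 0.0232), and without replicate 1 of that day it was -0.52. Without that tumor DESeq2 did not call mt-Cytb on day 3. On day 1 the log2 fold change was -0.43 (SE 0.15, edgeR adjusted p = 1).

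Of the 7 complex I genes of mtDNA, mt-Nd2, mt-Nd4 and mt-Nd4l were wholly below day 0 on day 3. For mt-Nd4, a proton-pumping membrane subunit, the tumors gave 1678, 1499 and 1808 CPM on day 0 and 1477, 1227 and 1205 CPM on day 3, with no overlap. For mt-Nd2, another membrane subunit, the values were 1006, 904 and 1093 CPM and 781, 802 and 733 CPM, again apart. Their log2 fold changes on day 3 were -0.35 (SE 0.15) and -0.37 (SE 0.15), with edgeR adjusted p = 0.152 and 0.132. The same difference was -0.29 for mt-Nd1, -0.28 for mt-Nd4l, -0.13 for mt-Nd5 and -0.06 for mt-Nd6. The last is the one subunit read from the opposite strand of mtDNA. mt-Nd1, mt-Nd5 and mt-Nd6 overlapped day 0 on day 3.

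In complex IV, mt-Co1 stood at 9332, 8419 and 9604 CPM on day 0 and 8722, 8297 and 8179.9 CPM on day 3, a log2 fold change of -0.12 (SE 0.15, edgeR adjusted p = 0.580) with overlapping tumors. mt-Co3, a further core subunit, was at 3555, 3475 and 3603 CPM and 3083, 2947 and 2984 CPM, without overlap. As deposited, the day 3 log2 fold change of mt-Co2 was -0.60 with an SE of 0.41, and ran from -1.12 (without replicate 3 of day 3) to -0.29 (without replicate 2 of day 0). Summed with its copy it stood at 4362, 4164 and 4436 CPM on day 0 and 3417, 3563 and 3461 CPM on day 3, so that the groups came apart, and the log2 fold change was -0.31 (SE 0.13, edgeR adjusted p = 0.148). The sum of mt-Atp6 and its copy was 3268, 3071 and 3516 CPM on day 0 and 2649, 2581 and 2527 CPM on day 3, also apart, with a log2 fold change of -0.35 against -0.14 as deposited. For mt-Nd3 it was -0.33 with the copy and -0.84 without. With copies added, 6 of the 13 were lower on day 3 at an unadjusted p under 0.05 (all genes, 11.8%) and 0 passed after adjustment in edgeR. mt-Atp8, a small ATP synthase subunit, had 16.5, 15.5 and 14.2 CPM on day 3 and 27.2, 19.0 and 19.3 CPM on day 7, apart, with a log2 difference of 0.51 (SE 0.15, edgeR adjusted p = 0.0832) that was 0.32 without replicate 1 of day 7. The sign of this difference was largely set in advance, as day 3 had the lowest mean share of the mitochondrial genes.

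**Figure D3:**
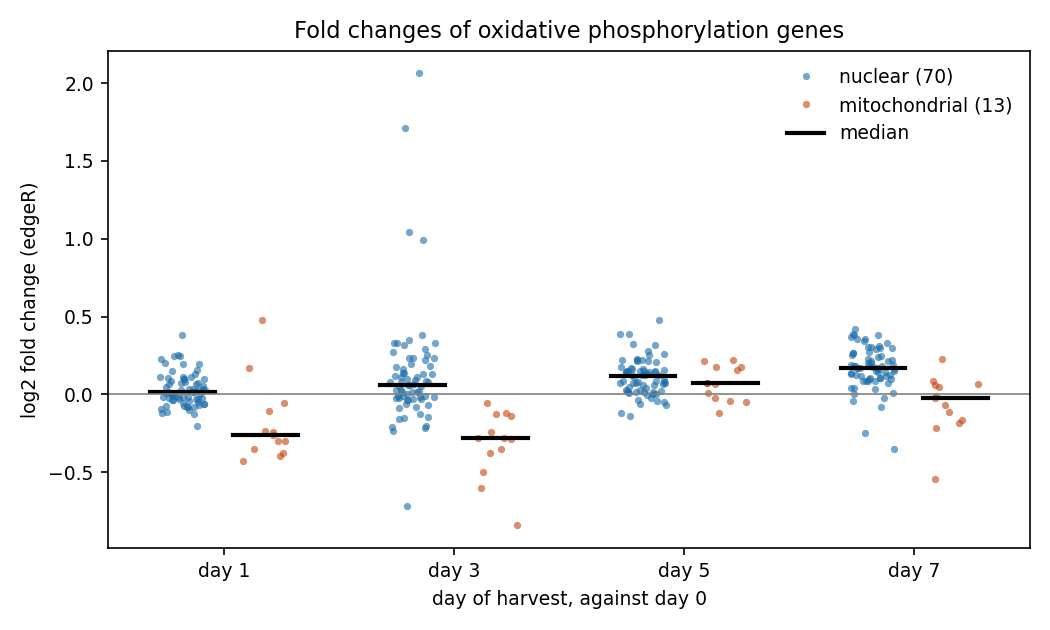
Log2 fold change from edgeR of each of the 70 nuclear (blue) and 13 mitochondrial (orange) genes on each treated day against day 0; black bars are medians. The mitochondrial medians are below 0 on days 1 and 3, the nuclear medians are highest on day 7, and 4 nuclear genes of day 3 (Cox6a2, Cox7a1, Cox4i2 and Atp5sl) stand far above the rest.

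The nuclear genes stood higher late in the course, by a smaller margin. The medians of their log2 fold changes for days 1, 3, 5 and 7 were 0.02, 0.06, 0.12 and 0.17, and the median of all genes for day 7 was -0.02. On day 7, 65 of 70 were above day 0 on average, and in 23 the tumors lay wholly above the untreated ones, against 5.02% of all genes. None lay wholly below, against 6.26%. On day 5 the counts were 18 above (6.89%) and 0 below (10.9%), for day 3, 8 above (19.4%) and 5 below (19.0%), and for day 1, 5 above (5.76%) and 3 below (6.61%). At an unadjusted p under 0.05, 17 of 70 were higher on day 7 (all genes, 1.05%) and 0 lower (1.02%). The same counts were 6 and 0 on day 5 (all genes, 1.41% and 3.39%), 11 and 1 on day 3 (18.3% and 11.7%) and 2 and 0 on day 1 (2.18% and 0.981%). With replicate 1 of day 3 left out, the day 3 counts were 2 higher (all genes, 6.53%) and 0 lower (6.53%), those of day 5 were 10 (4.16%) and 0, and those of day 7 were 23 (2.85%) and 0. Replicate 1 of day 7 weighed on these values, and without it the day 7 median was 0.08, and 5 genes were higher at an unadjusted p under 0.05 (all genes, 0.407%).

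Day 7 was also set against day 3, the day with the lowest mean share of the mitochondrial genes. The sign of the mitochondrial difference was thus largely set in advance. The median log2 difference was 0.14 for nuclear and 0.26 for mitochondrial genes, against 0.02 for all genes. Of 83, 23 lay wholly above day 3 (all genes, 14.6%) and 2 wholly below (18.4%). At an unadjusted p under 0.05, 19 were higher (12.9%) and 5 lower (22.6%). Without replicate 1 of day 7 the medians were 0.06 and 0.09, and 4 members were higher (6.07%) and 4 lower (15.3%). The counts without replicate 1 of day 3 were 20 (7.27%) and 0 (8.44%).

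By complex, the nuclear medians on day 7 were close together: 0.18 for 35 genes of complex I, 0.18 for 8 of complex III, 0.12 for 10 of complex IV and 0.17 for 15 of the ATP synthase, with Ndufa4 and Ndufa4l2 counted in complex IV. In complex I, 34 of 35 were above day 0 on average, and in the ATP synthase all 15 were. In the mitochondrial genes of complex I, by contrast, all 7 as deposited were below day 0 on average on day 7, with a median of -0.16. Summed with its copy, however, mt-Nd3 was above day 0, at a mean of 144 against 135 CPM. mt-Nd4l was nearly level, at 150 against 151 CPM. The difference between the 2 sets of complex I was not tested. These values by complex include replicate 1 of day 7 and are not given without it. Without that tumor the day 7 medians of all 70 nuclear and all 13 mitochondrial genes were 0.08 and -0.19.

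Atp5g2, which encodes the proton-carrying c subunit of the ATP synthase, had the smallest joint p of the 83. It stood at 100.0, 113 and 102 CPM untreated, 112, 133 and 129 CPM on day 1 and 103, 112 and 112 CPM on day 3. The later tumors gave 121, 122 and 123 CPM (day 5) and 151, 127 and 128 CPM (day 7). Tumors of days 5 and 7 lay above all untreated tumors. The log2 fold change on day 7 was 0.37 (SE 0.10, edgeR adjusted p = 1), and 0.28 without replicate 1 of day 7. Atp5l, subunit g of the membrane part, was at 82.0, 91.0 and 84.0 CPM untreated, 121, 106 and 96.9 CPM on day 3, 107, 103 and 112 CPM on day 5 and 126, 98.5 and 101 CPM on day 7. From day 3 on, every tumor was above day 0, and its day 3 log2 fold change was 0.33 (SE 0.11, edgeR adjusted p = 0.115, DESeq2 adjusted p = 0.0398). Without replicate 1 of day 3 that value was 0.25, and DESeq2 did not call Atp5l on that day. Its day 7 value was 0.34, and 0.22 without replicate 1 of day 7.

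Uqcr11 and Uqcr10, small subunits of complex III, were at 34.3, 38.3 and 36.9 CPM and 42.6, 47.2 and 46.2 CPM on day 0. On day 7 they were at 55.4, 43.0 and 44.2 CPM and 62.6, 50.6 and 53.1 CPM. Neither overlapped, and the log2 fold changes were 0.38 (SE 0.11) and 0.29 (SE 0.10), both with edgeR adjusted p = 1. Without replicate 1 of day 7 they were 0.26 and 0.19. Ndufb6, an accessory subunit of complex I, was at 24.5, 25.2 and 22.2 CPM on day 0 and 30.4, 29.6 and 28.6 CPM on day 7, also apart, at 0.30 (SE 0.09). It was 0.28 without replicate 1 of day 7. Of the larger subunits, Atp5b stood at 1014, 1018 and 1043 CPM untreated, 732, 1021 and 1024 CPM on day 3 and 1167, 1086 and 1143 CPM on day 7, and its day 7 log2 fold change was 0.14 (SE 0.12). The 3 tumors of day 7 lay above day 0 for Atp5b, and on day 3 only replicate 1 was low. Cox4i1 had 239, 248 and 238 CPM on day 0 and 241, 256 and 249 CPM on day 7, overlapping, and Uqcrc1 of complex III had 152, 153 and 141 CPM and 138, 178 and 158 CPM, also overlapping.

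Ndufa12, an accessory subunit of complex I, was among the lowest nuclear genes of day 3. It was at 21.7, 23 and 21.6 CPM on day 0 and 15, 20.5 and 20.8 CPM on day 3, without overlap, and its log2 fold change of -0.23 was -0.09 without replicate 1 of day 3. Most of the Ndufa12 difference thus lay in 1 tumor.

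Nuclear genes with short transcripts had the larger values. Leaving out the tissue-restricted isoforms Ndufa4l2, Cox4i2, Cox6a2 and Cox7a1, and Atp5s and Atp5sl, which are not canonical subunits, the 23 genes with transcripts of 600 bases or less had a median log2 fold change on day 7 of 0.27. The 21 genes above that and up to 1000 bases had 0.16 and the 20 longer ones 0.13. Among all genes kept, the medians of these classes on day 7 were 0.09, 0.05 and -0.03, the short transcripts again highest. On day 3 the members gave 0.18, 0.02 and 0.01, where all genes gave -0.06, 0.05 and -0.03. Without replicate 1 of day 3 the short members were at 0.09 on day 3, and without replicate 1 of day 7 at 0.19 on day 7. The part of transcript length in these differences was not tested.

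**Figure D4:**
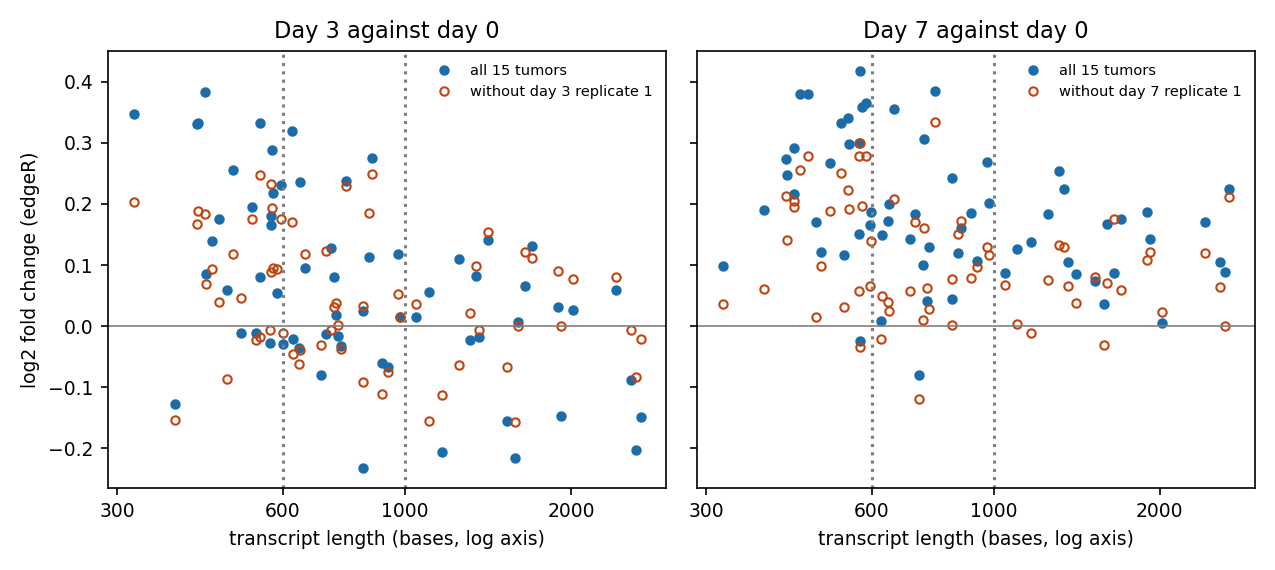
Log2 fold change of the nuclear genes against transcript length (log axis) on day 3 (left) and day 7 (right); filled points use all 15 tumors, open points leave out replicate 1 of that day, and dotted lines mark 600 and 1000 bases. On day 7 the short transcripts sit highest, and most open points lie below the filled ones.

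The promoters of the pair of nuclear genes with the smallest joint p are shown because their messengers were higher late in the course. The windows, from RefSeq (GRCm38.p6), hold the 250 bases before the gene's start, and capitals mark the core of the NRF1 site (GCGCATGC) and of the ETS site (CCGGAAG) on either strand. NRF1 and the ETS factor GABP are known activators of nuclear respiratory genes. Atp5g2 lies at chr15:102671048-102671297 and Atp5l at chr9:44920743-44920992, both on the minus strand.
Atp5g2: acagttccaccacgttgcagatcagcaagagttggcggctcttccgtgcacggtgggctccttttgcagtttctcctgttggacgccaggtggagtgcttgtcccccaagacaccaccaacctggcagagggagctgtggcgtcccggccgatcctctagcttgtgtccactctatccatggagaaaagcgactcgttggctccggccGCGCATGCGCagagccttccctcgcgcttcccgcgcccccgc
Atp5l: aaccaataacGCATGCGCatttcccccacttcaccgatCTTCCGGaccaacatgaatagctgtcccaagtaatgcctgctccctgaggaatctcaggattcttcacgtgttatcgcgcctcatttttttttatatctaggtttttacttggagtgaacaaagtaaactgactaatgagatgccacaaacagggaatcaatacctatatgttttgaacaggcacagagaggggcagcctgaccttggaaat
Of the 70 nuclear genes, 55 matched an entry, with 60 windows of 300 bases, which also hold 50 bases after the start. The NRF1 core was in 15% of these windows against 2.71% of 32851 promoters, and the ETS core in 21.7% against 8.86%. The YY1 core (AAGATGG) was in 15% against 6.34%, and the muscle-type E-box (CAGCTG) in 8.33% against 16.3%. The letters were searched on both strands and no motif holds another. A match is a description of these windows and not a site shown to be bound. Any relation between these motifs and the fold changes was not tested.

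Tissue-restricted isoforms gave the largest single values of the set, and they came from 1 tumor. Cox6a2, the heart and skeletal muscle form of subunit VIa of complex IV, stood at 15.6, 1.95 and 1.32 CPM on day 3, and at 0.601 to 2.33 CPM in the 12 tumors of other days. Cox7a1, the muscle form of subunit VIIa, stood at 2.94, 0.845 and 0.389 CPM on day 3, and Cox4i2, an isoform of subunit IV linked to low oxygen and lung, at 2.90, 0.698 and 1.13 CPM. In each case replicate 1 was highest, and the tumors of day 3 as a group overlapped day 0. The log2 fold change of Cox6a2 on day 3 was 2.06 (SE 0.79, edgeR adjusted p = 0.130) and 0.13 without replicate 1. For Cox7a1 it was 1.71 and 0.56, and for Cox4i2 1.04 and 0.26. Atp5sl, named after its values were seen, stood at 28.1, 11.3 and 12.0 CPM on day 3 and 7.58, 9.97 and 8.20 CPM on day 0, and its value of 0.99 was 0.44 without that tumor.

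The ubiquitous partners differed far less between tumors. Cox6a1 was at 96.3, 83.5 and 76.5 CPM on day 3 against 68.2, 81.4 and 76.6 CPM on day 0, Cox7a2 at 77.3, 84.1 and 76.8 against 70.6, 81.4 and 70.9 CPM, and Cox6b1 at 126, 98.8 and 93.7 against 81.4, 97.7 and 87.5 CPM. Replicate 1 was still the highest of day 3 for Cox6a1 and Cox6b1. Cox7a2l, a factor for assembling supercomplexes, was at 181, 114 and 130.4 CPM on day 3, with a difference from day 0 on the log2 scale of 0.06 (SE 0.17). Cox6b2, the testis form of subunit VIb, had 2 to 32 counts and Cox7b2 had 0 counts in every tumor, and neither passed the filter.

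The same tumor held the skeletal muscle markers. The 14 of them summed to 4242 CPM there and to 3.97 to 226 CPM in the other 14 tumors, and all 14 were highest in it. Acta1, skeletal actin, reached 894 CPM against a median of 34.0, and Ckm, muscle creatine kinase, 296 against 4.84. The 6 heart and slow muscle markers summed to 52.4 CPM in it and to at most 5.73 CPM elsewhere, with Myl2 and Myl3 at most 5 and 2 counts in any tumor. Adipocyte markers summed to 272 CPM in it against at most 59.3 CPM elsewhere, while Ucp1, the defining gene of brown fat, had at most 2 counts and the 3 brown adipocyte markers summed to at most 0.460 CPM. The part of muscle tissue in the isoform values was not tested.

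**Figure D5:**
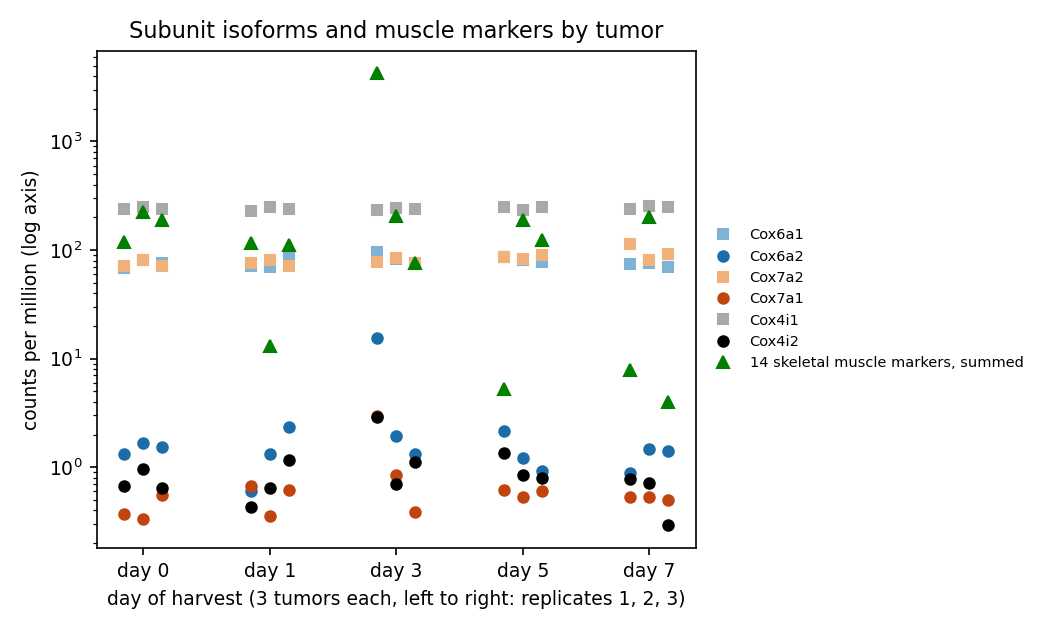
CPM (log axis) of muscle or restricted isoforms (circles), their ubiquitous partners (squares) and the sum of 14 skeletal muscle markers (triangles) in each tumor by day of harvest. Replicate 1 of day 3 holds the highest values of Cox6a2, Cox7a1, Cox4i2 and muscle markers, while the squares differ far less between tumors.

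Ndufa4l2, a paralog of Ndufa4 known as a target of hypoxia-inducible factor, followed another order. It stood at 13.1, 29.4 and 17.8 CPM untreated, 17.0, 19.5 and 29.5 CPM on day 1 and 11.5, 10.1 and 15.1 CPM on day 3. The later tumors gave 15.3, 18.3 and 21.3 CPM (day 5) and 34.2, 13.7 and 27.1 CPM (day 7). The groups overlapped in both comparisons given here. The log2 fold change on day 3 was -0.71 (SE 0.35, edgeR adjusted p = 0.185), and -0.34 without replicate 2 of day 0. It was 1.03 (SE 0.35, edgeR adjusted p = 0.0879, DESeq2 adjusted p = 0.0336) between days 7 and 3. Without replicate 1 of day 3, DESeq2 did not call Ndufa4l2 between these days. Ndufa4 itself stood at 57.2, 45.7 and 41.8 CPM on day 3 and 63.2, 51.1 and 52.5 CPM on day 7. The 15 glycolysis genes, among which are further targets of that factor, had a median log2 difference of 0.51 between days 7 and 3, with 10 higher at an unadjusted p under 0.05 (all genes, 12.9%), 0 called by edgeR and 10 by DESeq2 (all genes, 20.9%). On day 7 all 15 were above day 0 on average, at a median of 0.26, and on day 3 the median was -0.23. These glycolysis values include replicate 1 of day 3 and are not given without it. A shared cause of the Ndufa4l2 and glycolysis values was not tested.

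To compare the 2 genomes within a complex, the counts of a core mitochondrial subunit were divided by those of a core nuclear partner in the same tumor. The log2 ratio of mt-Cytb to Uqcrc1 was 4.31, 4.21 and 4.50 on day 0, 4.19, 3.93 and 3.58 on day 1 and 3.94, 3.64 and 3.77 on day 3. All treated tumors of days 1 and 3 lay below the untreated ones. It was 4.18, 3.91 and 4.13 on day 5, also below, and 4.61, 3.79 and 4.01 on day 7, which overlapped. Day of harvest held 45.4% of its variance (exact permutation p = 0.165, or 0.580 adjusted over 4 ratios). It held 62.3% without replicate 1 of day 7 (exact permutation p = 0.0491, adjusted 0.197), and with Uqcrfs1, the Rieske subunit, as the partner 66.2% (exact permutation p = 0.0227, adjusted 0.0907). Against day 0 the two-sided exact permutation p was 0.1 on days 1, 3 and 5, the smallest that 3 tumors against 3 allow.

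The ratios of complex IV and of the ATP synthase gave no p under 0.05. Day held 5.36% of the variance of mt-Co1 to Cox4i1 (exact permutation p = 0.974) and 5.16% of mt-Atp6 to Atp5b (exact permutation p = 0.963). The adjusted value was 0.974 for both. The complex IV share was 43.9% with Cox6b1 as the partner (exact permutation p = 0.177) and 30.4% without replicate 1 of day 7 (exact permutation p = 0.464). That of the ATP synthase was 21.5% with the copy added (exact permutation p = 0.615) and 19.9% without replicate 1 of day 3 (exact permutation p = 0.685). With the copy added, the log2 ratio of the ATP synthase was 1.69, 1.59 and 1.75 on day 0 and 1.45, 1.36 and 1.46 on day 1. Those days were apart (two-sided exact permutation p = 0.1, the smallest possible), while days 3, 5 and 7 overlapped day 0. The mean log2 ratio of mt-Co1 to Cox4i1 was 5.23 ± 0.13 (SD, n = 3) on day 0 and 5.13 ± 0.07 on day 3. That of mt-Atp6 to Atp5b was 0.79 ± 0.32 on day 0, and 1.68 ± 0.08 with the copy added, so the spread of this ratio was smaller with the copy.

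Genes around the chain were read from fixed lists, and edgeR called 0 genes of any of them in any comparison. The 4 subunits of complex II, Cyc1 and Cycs had median log2 fold changes of 0.07 (day 3) and 0.19 (day 7), and 5 of these 6 lay wholly above day 0 on day 7 (all genes, 5.02%). Among them Sdhb, the iron-sulfur subunit, was at 105, 113 and 106 CPM on day 0 and 135, 121 and 117 CPM on day 7. The 7 tested subunits whose names the rule does not match, among them Cox5a, had median log2 fold changes of 0.03 (day 3) and 0.04 (day 7). Cox5a stood at 85.6, 95.3 and 93.9 CPM on day 0 and 108, 109 and 99.4 CPM on day 3, apart. The 77 mitochondrial ribosomal proteins had median log2 fold changes of -0.06 (day 3) and 0.11 (day 7), with 20 of 77 wholly above day 0 on day 7 (all genes, 5.02%) and 0 below (6.26%). The 38 tested assembly factors had median log2 fold changes of 0.01 (day 3) and 0.07 (day 7).

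Ndufaf3, an assembly factor of complex I, had the smallest day 3 p of its list, at 4.65, 5.47 and 4.40 CPM on day 0 and 11.2, 7.39 and 7.55 CPM on day 3, apart, with a log2 fold change of 0.85 (SE 0.21, edgeR adjusted p = 0.115). The 24 tested genes of mtDNA expression and biogenesis had median log2 fold changes of -0.14 (day 3) and 0.03 (day 7), with 3 lower and 1 higher on day 3 at an unadjusted p under 0.05 (all genes, 11.7% and 18.3%). Ppargc1a, a coactivator that drives mitochondrial biogenesis, was at 5.63, 7.22 and 8.0 CPM on day 0 and 2.13, 3.34 and 3.27 CPM on day 3, apart, at -1.25 (SE 0.35, edgeR adjusted p = 0.115), and -1.07 without replicate 1 of day 3. Tfb2m, a factor that mtDNA transcription needs to start, was at 38.5, 36.2 and 40.5 CPM and 25.3, 29.0 and 31.0 CPM, apart, at -0.43 (SE 0.13, edgeR adjusted p = 0.115). On day 7 both overlapped day 0. The 16 genes of the tricarboxylic acid cycle had median log2 fold changes of -0.11 (day 3) and 0.06 (day 7). Of the other genes with the smallest day 3 p of their lists, the day 3 log2 fold changes were 0.13 for Sdhd of complex II, 0.06 for Cox5b of complex IV, 0.44 for the complex IV assembly factor Coa5, 0.33 for Ogdh and -0.36 for Pdha1, both dehydrogenase subunits, 0.24 for Mrpl36 and 0.26 for Mrpl55, and -0.23 for Pfkp and -0.55 for Eno1 of glycolysis. The 5 nuclear copies that passed the filter had a median of -0.18 on day 3, with Gm10925 at -0.64 and Gm28438 at -0.29, and the mitochondrial ribosomal RNAs were not in the table. Apart from that of Ppargc1a, the day 3 values of the lists are not given without replicate 1 of that day.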

How the data were processed

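RNA came from 15 tumors kept in RNAlater and was extracted with Trizol and a column kit, per the labels. The authors assigned polyadenylated reads to transcripts of GRCm38 with kallisto and summarised transcripts to genes with tximport, and they deposited the estimated counts per gene as whole numbers, without scaling. Beyond the mm10 build, the transcript set and the use of strand are not given in the sources used here, so reads of overlapping, antisense or near-identical genes may be split between entries.

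Tumors were grouped by the day in the labels. One row whose gene name had been converted to a date was left out. Genes were kept at a CPM above 0.366 in at least 3 tumors. Counts were normalised by TMM and tested with edgeR 4.0.16 (quasi-likelihood test, all 5 days in 1 fit, no covariate) under R 4.3.3, with Benjamini-Hochberg adjustment over 15494 genes. DESeq2 1.42.0, other scalings and filters, and fits without each tumor were alternatives. Shares and ratios were computed from counts, and 4 ratios were tested by exact permutation of the day labels. Copies of mitochondrial genes were found with blastn 2.17.0 in the GENCODE transcripts of GRCm38. The edgeR fit was tested on simulated counts with the same spread for every gene, which need not match that of these tumors. Depth sets counting error only, and with 3 tumors per day the spread between tumors sets the precision.

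The members, the gene lists and the tests were chosen with earlier results of these data known. Genes were named by a fixed rule: all mitochondrial members, the genes of the ratios, the restricted isoforms with their partners, the 6 nuclear genes with the smallest joint p, the 3 highest and 3 lowest of day 3, and from each list of related genes those with the smallest day 3 p. One gene that this rule names, and the ratio that uses it, are not reported here.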

Additional observations from a re-analysis of the deposited data

How the results depend on the processing

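Counting members called at an adjusted p under 0.05, the edgeR result of 0 in every comparison held under the other scalings, the filters, the fit of 2 days at a time, the added nuclear copies and the replicate block. Leaving out 1 tumor gave 0 to 2 members between days 7 and 3 (2 without replicate 3 of day 3) and 0 elsewhere. DESeq2 called 2 on day 3, 12 between days 7 and 3 and 4 in the joint test, and without replicate 1 of day 3 it called 1 on day 5 and 1 in the joint test. That setting and the added copies were chosen after seeing the data. DESeq2 put mt-Cytb at -0.48 and Atp5l at 0.36 on the log2 scale on day 3, both past the threshold. The cause of these differences between tools was not tested.

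The nuclear median of day 7 ranged from 0.079 (without replicate 1 of day 7) to 0.23 (without replicate 2) on the log2 scale. In the same fits 3 medians crossed 0: the nuclear one of day 1 (-0.02 to 0.06) and the mitochondrial ones of day 5 (-0.11 to 0.22) and day 7 (-0.19 to 0.09). Over the counts of calls, the medians and the ratios, 464 values under an alternative kept their call or stayed within the spread, and the 7 that moved are the 6 counts above that are not 0 and the lowest day 7 median. Of the values of single genes 497 did so, and the 2 of DESeq2 above passed the threshold. With the replicate number as a block, the nuclear medians were 0.02, 0.06, 0.12 and 0.17 on days 1, 3, 5 and 7, and day held 61.5% of the variance of the mt-Cytb ratio. Over 30 pairs of same-numbered tumors the deviations correlated at r from -0.62 to 0.51, with 9 above 0.1, so the numbers were not taken to pair tumors. Library totals without mtDNA genes gave mitochondrial medians of -0.25 on day 1 and -0.24 on day 3.

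With 3 tumors per day, the spread between tumors limits detection, and small differences of single genes were not detectable here.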
